A study of Mus musculus with 12 samples.

Results

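RAW264.7 macrophages given miR-222-3p-loaded endothelial vesicles were compared with macrophages given control-loaded vesicles, each library against the control library of the same number. The members were the 3 miR-222-3p-EV and the 3 ctrl-EV libraries, 6 of the 12 RNA libraries in the series, chosen by their titles. RAW264.7 is a mouse macrophage line and was the recipient in every group. Extracellular vesicles (EVs) came from MS-1, a mouse endothelial line, and were electroporated with a synthetic miRNA mimic before they were given at 3 µg vesicle protein per ml for 48 h in medium with vesicle-depleted serum. Both groups shared the vesicle source, the electroporation, the dose and the time. The control mimic was cel-miR-67, a worm miRNA, according to the study's methods. The other 6 libraries, 3 given EVs with miR-183-5p and 3 given EVs with miR-142-5p, had the same treatment with another mimic. Every group is 1 cell line, and the sources used here do not say what a shared replicate number stands for.

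The libraries held 16294611 to 22974853 estimated counts. The 6 compared held 19568719, 17181572 and 20468259 with ctrl-EVs, against 21502012, 17313377 and 20480976 given miR-222-3p-EVs, for numbers 1, 2 and 3. The 14 macrophage markers were all above the count minimum, and their summed level was 2909 to 4162 TPM with ctrl-EVs and 3175 to 4179 TPM with miR-222-3p-EVs. Of 18 endothelial markers, 2 were at 0 in all 6 libraries, and the sum was 20.3 to 35.8 TPM and 21.5 to 38.4 TPM. The table lists 0 transcripts annotated as miRNAs, so the mimic itself has no value here. In RNA from a whole culture, a change in the cells' make-up and a change per cell cannot be told apart.

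miR-222-3p and its close relative miR-221-3p form a family that lowers the level or translation of mRNAs that carry a match to its seed in the 3′ untranslated region (UTR). Among the mRNAs reported elsewhere as its targets are Cdkn1b, which encodes the cell cycle inhibitor p27, and Bbc3, which encodes the apoptosis inducer PUMA. In macrophages the family has been studied for its part in inflammatory polarisation, the spectrum from M1-like, inflammatory cells to M2-like, repair-associated cells. The mature mouse sequences are shown because the seed, bases 2 to 8 in capitals, defines the sites counted below. miR-221-3p is the family member with the same seed. Both are from RefSeq on build GRCm38.p6 and lie on the minus strand, miR-222-3p at chrX:19146901-19146923 and miR-221-3p at chrX:19146307-19146329.
mmu-miR-222-3p: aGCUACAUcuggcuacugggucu
mmu-miR-221-3p: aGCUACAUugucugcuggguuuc

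The 7-base match to this seed, ATGTAGC on the transcript strand, was looked for in annotated 3′ UTRs. For each gene the most abundant transcript with a 3′ UTR was used, whatever its annotated type. Of 13092 tested genes with such a UTR, 1217 (9.30%) held at least 1 match and 156 held at least 2. Of the 26 genes called or leading by paired ratio below, 4 held it, Slc43a2, Tlr3, Fam107b and Sesn3, and these 4 were among the 13 that were higher with miR-222-3p-EVs. Their sites, and the sites of Cdkn1b and Bbc3 for comparison, are shown with the match in capitals. Positions are GRCm38 from the GENCODE vM21 annotation, and each lies in a 3′ UTR exon. Slc43a2 is at chr11:75574955-75574983 (plus strand), Tlr3 at chr8:45396456-45396484 (minus), Fam107b at chr2:3781002-3781030 (plus), Sesn3 at chr9:14332024-14332052 and chr9:14332200-14332228 (plus), Cdkn1b at chr6:134924420-134924448 (plus) and Bbc3 at chr7:16317320-16317348 (plus).
Slc43a2: cctgggtgtggATGTAGCtcagttggtag
Tlr3: cttttaagggcATGTAGCaccacacccag
Fam107b: tagaatagcagATGTAGCgctttggaatc
Sesn3, first: ggaagaactggATGTAGCttttaacttat
Sesn3, second: gtgagtgatgtATGTAGCatgctgtgaag
Cdkn1b: aaaagcattggATGTAGCattgcgcaatt
Bbc3: ttttctgcaccATGTAGCatactggactg

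To determine which genes differed, gene counts were fitted with the replicate number as a block. Of 13906 genes tested, 9 changed, 6 higher and 3 lower with miR-222-3p-EVs (DESeq2 adjusted p under 0.05; 0.0647% of genes tested). The genes that rose were Atm, Fubp1, Slc43a2, G2e3, Slc7a11 and P2rx7, and those that fell were Prss35, Fam167b and Akr1b3. On GRCm38, Atm lies at chr9:53439149-53536740, Fubp1 at chr3:152210422-152236826, Slc43a2 at chr11:75531694-75577575, G2e3 at chr12:51348061-51376986, Slc7a11 at chr3:49892526-50443614 and P2rx7 at chr5:122643911-122691432. Prss35 lies at chr9:86743649-86758443, Fam167b at chr4:129576815-129578549 and Akr1b3 at chr6:34302434-34317478, and none overlaps another tested gene. With the length correction all 9 moved the same way in all 3 numbers. Without it 7 of them did, the exceptions being Atm and Slc7a11 in number 2. The median size of the 9 was 0.47 on the log2 scale against 0.12 over all genes. The 9 were called from these same values, so neither their shared direction nor their size is separate support. Without the block DESeq2 called 0 genes (101 at an unadjusted p under 0.05), and 0 passed in edgeR (986 had an unadjusted p under 0.05, against 908 in the blocked DESeq2 fit, 6.53% of genes tested). Leaving out a single library gave 18, 40 and 93 calls without ctrl-EV libraries 1, 2 and 3. Of these, 2, 7 and 5 were among the 9. Without miR-222-3p-EV libraries 1, 2 and 3 the counts were 3, 9 and 4, with 1, 3 and 2 among the 9. Over 15 alternative settings Atm stayed called in 11, Fubp1 in 9, Prss35 in 5 and Slc43a2 in 4. Akr1b3 and Slc7a11 stayed called in 3 each, Fam167b in 2, and G2e3 and P2rx7 in 1 each.

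Atm encodes the kinase that signals DNA double-strand breaks. Numbers 1, 2 and 3 had 1921, 2225 and 1224 normalized counts with ctrl-EVs. The libraries given miR-222-3p-EVs had 2526, 3942 and 2081. Each number was higher, but the groups overlapped, since library 3 with miR-222-3p-EVs lay below library 2 with ctrl-EVs. The log2 fold change was 0.66 ± 0.11 (SE; DESeq2 adjusted p 5.25e-05). Fubp1, which encodes a DNA- and RNA-binding regulator of MYC transcription, had 2191, 3973 and 1374 counts with ctrl-EVs, against 2996, 5549.5 and 2083 given miR-222-3p-EVs. The 3 paired log2 ratios were close to each other, at 0.45, 0.48 and 0.60, and the log2 fold change was 0.51 ± 0.096 (SE; DESeq2 adjusted p 0.000378). G2e3, a ubiquitin ligase of the G2/M phase, had 895, 1968 and 495 counts against 1222, 2676 and 771. Its paired log2 ratios were 0.45, 0.44 and 0.64, with a log2 fold change of 0.50 ± 0.13 (SE; DESeq2 adjusted p 0.0497).

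Transporters of amino acids made up a pair of the 6 rises. Slc43a2, a carrier of large neutral amino acids, had 1400.3, 1314 and 1087 counts with ctrl-EVs, against 2219, 1624 and 1441 given miR-222-3p-EVs. It was the only one of the 9 whose groups did not overlap, which held for 1.49% of genes tested on the higher side and 1.2% on the lower (167 genes). Its log2 fold change was 0.46 ± 0.11 (SE; DESeq2 adjusted p 0.0273). Slc7a11, the cystine importer that feeds glutathione synthesis, had 938, 208 and 516 counts against 1439, 220.5 and 851. Number 2 was low in both groups and differed least, with a paired log2 ratio of 0.081 beside 0.62 and 0.72, and without the length correction it was lower, at 159 counts against 202 with ctrl-EVs. The fitted log2 fold change was 0.52 ± 0.13 (SE; DESeq2 adjusted p 0.0497). Over the list of 21 tested amino acid transporters, these 2 rose and 0 fell (0.0647% of all genes tested were called), while 5 were higher and 1 lower in all 3 numbers (12.6% and 12.6% of all genes tested) and the median log2 fold change was 0.013. Slc7a2, which imports arginine, was near the detection minimum, at 7.12, 12.4 and 9.29 counts against 12.1, 14.2 and 14.96, and Slc6a9, a glycine transporter, had a log2 fold change of 0.15 (DESeq2 adjusted p 0.851).

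P2rx7, the ATP-gated channel that triggers the inflammasome in macrophages, had 607, 532 and 832 counts with ctrl-EVs, against 755, 858 and 1069.7 given miR-222-3p-EVs. All numbers were higher and the fitted log2 fold change was 0.45 ± 0.11 (SE; DESeq2 adjusted p 0.0499). Among the falls, Akr1b3, the aldose reductase that turns glucose into sorbitol, was by far the most abundant, at 64697, 67254 and 26678 counts against 46374, 60305 and 19324. Number 2 again differed least, with a paired log2 ratio of −0.16 beside −0.48 and −0.46, and the fitted value was −0.37 ± 0.093 (SE; DESeq2 adjusted p 0.0497). Prss35, a serine protease family member, had 9859, 5911 and 3474 counts against 6568, 4149.9 and 2840.3, a log2 fold change of −0.46 ± 0.10 (SE; DESeq2 adjusted p 0.0195). Fam167b, a gene with no settled function, had 1186, 403 and 731 counts against 814, 321 and 516, a log2 fold change of −0.47 ± 0.11 (SE; DESeq2 adjusted p 0.0497). In 8 of the 9 genes the groups overlapped, and the joined points in the plot of called genes show the pairs.

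**Figure D1:**
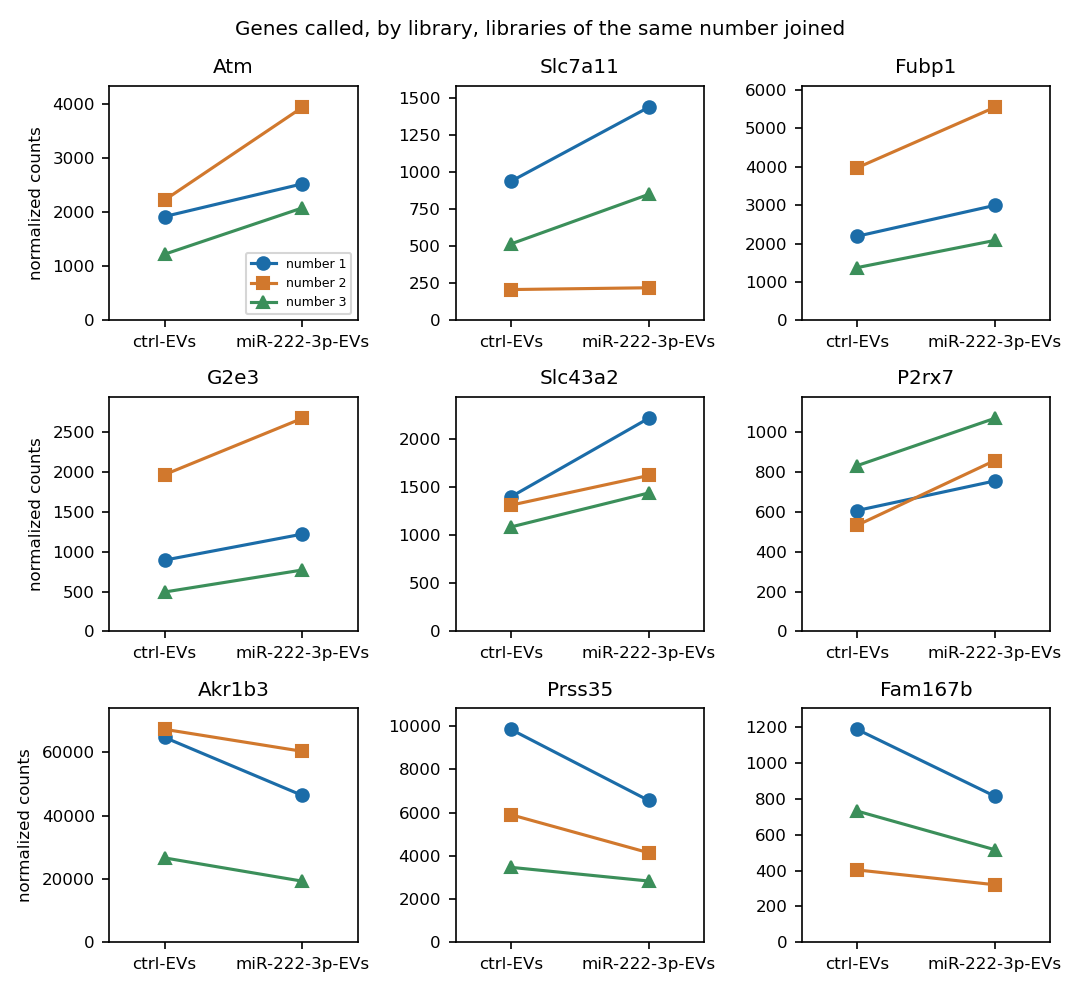
Normalized counts (vertical axes from 0) of the 9 genes called by DESeq2 with the replicate block, in the 3 ctrl-EV and 3 miR-222-3p-EV libraries. Lines join libraries of the same number: all 3 lines of each gene run the same way, and the 2 groups are separated in full for Slc43a2 alone.

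Next, the same genes were set against the libraries of the other mimics, miR-183-5p and miR-142-5p, which share the vesicle treatment but not the mimic. None of the 9 differed between miR-222-3p-EVs and the mean of the other mimics (DESeq2 adjusted p 1.0 for each), with log2 differences of 0.065 to 0.15 for the 6 rises and −0.13 to −0.24 for the 3 falls. The miR-142-5p-EV libraries had 2780, 3505 and 2089 counts of Atm, and the miR-183-5p-EV libraries 2165, 3311 and 2069. These share the 3 ctrl-EV libraries with the comparison that called Atm, so their distance from ctrl-EVs is no separate support. Among the 9, Prss35 had the lowest unadjusted DESeq2 p in this contrast, 0.0094, with a log2 difference of −0.24 ± 0.091 (SE). Across all genes 3 differed from the other mimics (0.0216% of genes tested), each with libraries at 0 counts.

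To find which transcripts lay behind the 9 genes, transcript counts were fitted in the same way. The fit corrects a gene's counts for the mean length of the transcripts in use, weighted by their TPM, so a gene's fold change holds both its counts and a shift in the lengths. For Atm the weighted length was 6887, 7168 and 6194 bases with ctrl-EVs, against 5833, 3970 and 6111 given miR-222-3p-EVs, lowest in library 2. Its uncorrected estimated counts were 2260, 2339 and 1366 against 2752, 2218 and 2421. Number 2, which had the largest corrected ratio, was slightly lower in uncorrected counts. The long transcript Atm-201 held 84.1% of the gene's counts and was not called, with a log2 fold change of 0.25 ± 0.14 (SE; DESeq2 adjusted p 0.760). Slc7a11 and P2rx7 also had shorter weighted lengths with miR-222-3p-EVs, on average 8341 against 7077 bases and 3143 against 2516 bases. Their main transcripts, Slc7a11-201 with 96.3% of counts and P2rx7-203 with 87.4%, had log2 fold changes of 0.15 (DESeq2 adjusted p 0.980) and −0.016 (DESeq2 adjusted p 1.0).

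Akr1b3 and Fam167b were carried by 1 transcript each. Akr1b3-201 held 94.5% of the gene's counts and fell by 0.42 on the log2 scale (DESeq2 adjusted p 0.00155), and Fam167b-201 held 96.5% and fell by 0.46 (DESeq2 adjusted p 0.0375). These were the only 2 called transcripts that belonged to called genes. The fold change of Prss35 was shared evenly, at −0.47 for Prss35-201 and −0.47 for Prss35-202, neither called. Fubp1 was spread over 20 listed transcripts, of which Fubp1-202, Fubp1-211, a transcript with a retained intron, and Fubp1-209 held 22.0%, 22.0% and 16.5% of counts. All 3 were higher, at 0.27, 0.46 and 0.48, and none was called. For Slc43a2 the 2 main transcripts varied more between numbers than between groups, Slc43a2-211 having 1088, 619 and 839 counts against 1812, 754 and 634. G2e3-201, with 68.5% of counts, had a log2 fold change of 0.36 (DESeq2 adjusted p 0.475).

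Without the length correction Fubp1 (DESeq2 adjusted p 0.0384) and Prss35 (0.0158) were still called and the other 7 were not. The log2 fold changes of Atm and P2rx7 went to 0.29 and 0.15, and that of Slc7a11 to 0.31. Fubp1 and G2e3, at 0.46 each, and the 3 falls, at −0.34 to −0.45, moved little. The plot of fold changes with and without the correction sets Atm, Slc7a11 and P2rx7 beside the genes that kept their size.

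**Figure D2:**
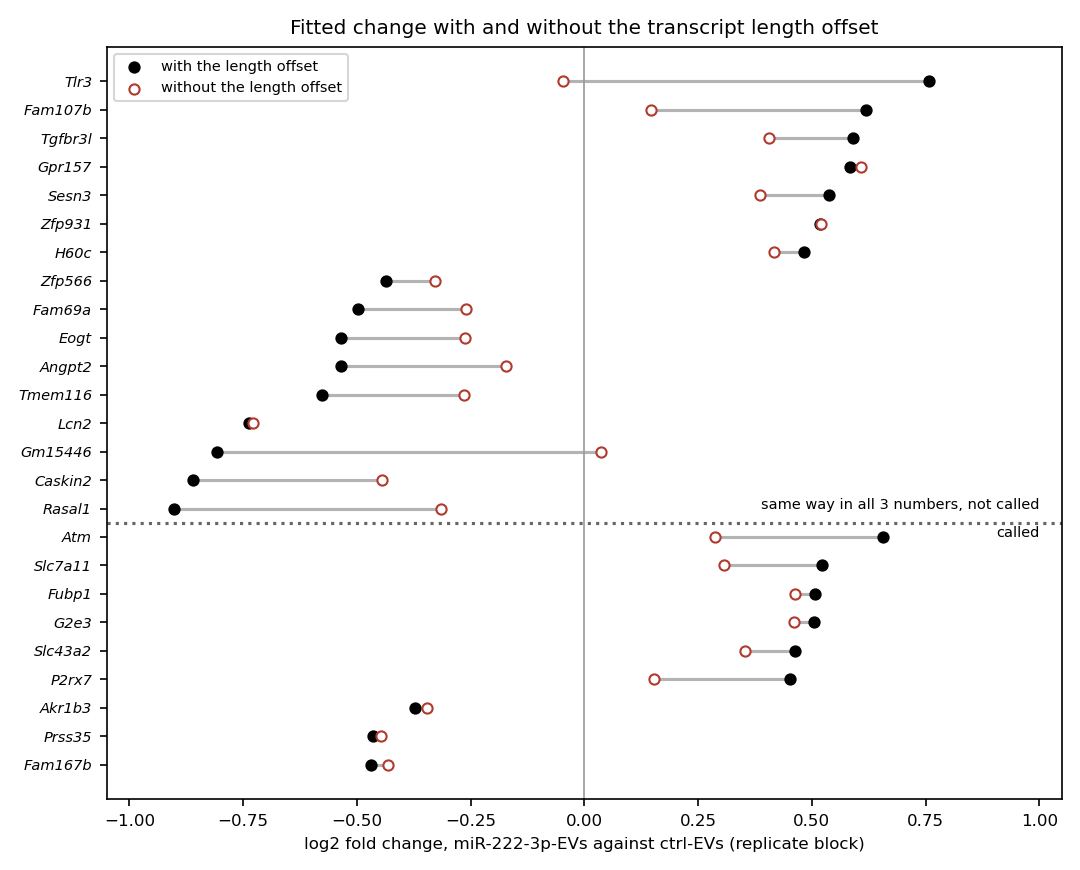
Fitted log2 fold change (horizontal axis, DESeq2 with the replicate block) with the transcript length offset (filled) and without it (open), for the 9 called genes and 16 other named genes. Fubp1, G2e3 and the 3 falls kept their values, Atm went from 0.66 to 0.29, and Tlr3 and Gm15446 crossed 0.

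Across all genes, 1749 were higher with miR-222-3p-EVs in all 3 numbers (12.6% of genes tested) and 1757 were lower in all 3 (12.6%). Signs unrelated between the numbers would give shares of about this size, so these counts alone do not show a shared response. The paired ratios of the numbers had hardly any relation to each other: over the 10080 genes whose mean was 100 or more normalized counts, Pearson's r was 0.059 for numbers 1 and 2, −0.033 for 1 and 3 and −0.062 for 2 and 3. These are descriptions across genes of the same libraries. In 231 genes all 3 log2 ratios were above 0.32, and in 113 all 3 were as far below 0. Without the length correction the counts were 1686 and 1747, and 2407 genes were shared with the main set in the same direction.

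By the size of the smallest of the 3 ratios, the leading higher genes other than those called were Tgfbr3l, H60c, Zfp931, Tlr3, Fam107b, Sesn3 and Gpr157. None of these, nor of the falls below, had an adjusted p, since DESeq2 set genes of low mean count aside. Fam107b, an actin-associated gene, had 185, 268 and 238 counts with ctrl-EVs, against 374, 362 and 319 given miR-222-3p-EVs. Its groups did not overlap, and its log2 fold change was 0.62 ± 0.16 (SE; unadjusted DESeq2 p 8.23e-05), but 0.15 without the length correction. H60c, a ligand of the NK cell receptor NKG2D, had 150.3, 194 and 114 counts against 211, 261 and 165, a log2 fold change of 0.48. Sesn3, a sestrin that restrains mTORC1, had 77.4, 198 and 95.3 against 127, 262 and 138, a log2 fold change of 0.54. Tlr3, the receptor for double-stranded RNA, had 137, 39.1 and 97.0 against 183.02, 63.1 and 220.0, a log2 fold change of 0.76, and took the opposite sign without the length correction (−0.047). Against the other mimics Tlr3 had a log2 difference of 0.83 ± 0.21 (SE; DESeq2 adjusted p 0.283). Tgfbr3l, which shares its strand and place with Gm49320, Zfp931 and Gpr157 had log2 fold changes of 0.59, 0.52 and 0.58.

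The leading lower genes included Gm15446, Rasal1, Caskin2, Lcn2, Tmem116, Fam69a, Angpt2, Eogt and Zfp566. Rasal1, a GTPase-activating protein of RAS, had 227, 204 and 262 counts with ctrl-EVs, against 109, 96.5 and 180.2 given miR-222-3p-EVs, and its groups did not overlap. The log2 fold change was −0.90 ± 0.28 (SE; unadjusted DESeq2 p 0.00113), and −0.31 without the length correction. Caskin2, a scaffold protein that overlaps Tmem94 on the opposite strand, had 224, 191 and 217 counts against 117, 82.2 and 156, with groups apart and a log2 fold change of −0.86 ± 0.21 (SE; unadjusted DESeq2 p 2.72e-05). Eogt, an O-GlcNAc transferase of secreted proteins, and Fam69a were also below ctrl-EVs in every library, with log2 fold changes of −0.53 and −0.50. Lcn2, the iron-scavenging lipocalin of inflamed macrophages, differed most between numbers, with 500.1, 267 and 1332 counts against 235, 166 and 974. Its log2 fold change of −0.74 had an SE of 0.59 (unadjusted DESeq2 p 0.212). Angpt2, the antagonist ligand of the TEK receptor, had 429, 121 and 228 counts against 279, 82.9 and 170.3, a log2 fold change of −0.54. Tmem116, Zfp566 and Gm15446 had log2 fold changes of −0.58, −0.44 and −0.81, the last with the opposite sign without the length correction (0.036).

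At the transcript level 181 of 47135 transcripts were called, 86 higher and 95 lower (DESeq2 adjusted p under 0.05; 0.384% of transcripts tested), in 174 genes. Of these, 67 were at 0 in every library of 1 group, and the 10 with the lowest p, Brd3-203, Myef2-201, Arhgap10-202, Slc35b2-205, Cdk9-202, Gtf2i-203, Ppm1b-208, E4f1-202, Qars-223 and Cradd-205, were all of this kind. Brd3-203, for instance, had 107, 12.1 and 0 normalized counts with ctrl-EVs and 0 in each miR-222-3p-EV library, and Gtf2i-203 was above 0 in 1 of the 6 libraries. Their genes did not follow, Brd3 having a log2 fold change of 0.17 and Gtf2i of −0.014. By edgeR 0 transcripts passed, with a lowest adjusted p of 0.888 (2527 had an unadjusted p under 0.05, against 3305 in DESeq2), and the DESeq2 count was 40 without the block. These fits used point estimates of the counts per transcript. Their SE and p-values therefore leave out the uncertainty of sharing reads among a gene's transcripts.

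Transcripts with at least 10 counts in all 6 libraries made up 94 of the calls, 33 higher and 61 lower. That was 0.339% of the 27689 such transcripts, of which 11.7% were higher and 15.9% lower in all 3 numbers. A fit with such a filter called 37, of which 36 were among the 181 of the main fit. The following 10 had the lowest p among the 94, a choice made after the values were seen. Far1-202, 1 of the transcripts of an enzyme that makes fatty alcohols for ether lipids, had 109, 302 and 63.3 counts with ctrl-EVs, against 196, 633 and 165 given miR-222-3p-EVs. Every number was higher, with a log2 fold change of 1.09 ± 0.17 (SE; DESeq2 adjusted p 1.98e-06), while the gene as a whole had 0.086. Pkm-205, a retained-intron transcript of the glycolytic enzyme pyruvate kinase, had 2433, 6749 and 1044 counts against 3157, 10436 and 1517, a log2 fold change of 0.52 (DESeq2 adjusted p 5.42e-06), with −0.0017 for the gene. Surf1-207, of an assembly factor of cytochrome oxidase, was also higher, at 1.253 (DESeq2 adjusted p 0.00053).

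The other 7 were lower and were larger parts of their genes. Arhgap1-201, of a GTPase-activating protein for CDC42, held 44.6% of the gene's counts and had 890.1, 445 and 983 against 570, 326 and 678. Its log2 fold change was −0.55 (DESeq2 adjusted p 5.42e-06), beside −0.096 for the gene. Rbbp7-203, of a histone-binding chaperone subunit, had −0.57, Reps1-201, of an endocytic adaptor, −0.45, and Spred2-202, of an inhibitor of the RAS-MAPK cascade, −0.38. Rnh1-202, of the ribonuclease inhibitor, had −0.33 and Galnt7-201, of an enzyme of O-glycosylation, −0.28. The tenth was Akr1b3-201, described above.

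Grouped by their annotated type, retained-intron transcripts leaned furthest to the higher side, but not alone. Of 11659 tested, 19 were called higher and 3 lower, 0.189% beside 0.384% of all transcripts tested. By direction alone, 21.9% were higher in all 3 numbers and 6.11% lower in all 3, and the median log2 fold change was 0.17. The same shares over all transcripts were 13.0% and 12.5%, with a median of −0.0039. The medians by number were 0.088, 0.21 and 0.21. Transcripts annotated as protein-coding had 54 called higher and 79 lower of 26535, 8.78% higher and 16.2% lower in all 3 numbers, and a median of −0.063. Those annotated as processed transcript leaned the same way as retained introns, by less. Of 4794, 2 were called higher and 4 lower, with 15.9% higher and 9.03% lower in all 3 numbers. Their median was 0.085, and 0.012, 0.066 and 0.096 by number. Retained-intron transcripts held 3.91%, 5.76% and 3.79% of the counts in ctrl-EV libraries 1, 2 and 3. Given miR-222-3p-EVs, the cells had 4.08%, 6.63% and 4.23%. Each number was higher, and number 2 stood above both others in either group. The median log2 fold change of these transcripts lay between 0.14 and 0.21 without the block, without the length offset, with edgeR and without each number in turn. Reads from unspliced RNA could not be told apart from those of an annotated retained intron.

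The other mimics also had higher shares than ctrl-EVs. The share was above that of the same-numbered ctrl-EV library in 9 of 9 mimic libraries, which share those controls, with 4.28%, 6.19% and 4.22% in the miR-142-5p-EV libraries, and 4.28%, 6.40% and 4.22% in those with miR-183-5p. Against the other mimics the median log2 difference of retained-intron transcripts was 0.0041. Among those with a mean of at least 100 counts, chosen by the smallest of the 3 ratios after the values were seen, Ccar1-203 had 69.1, 164 and 45.6 counts against 128, 295 and 127, a log2 fold change of 1.03 (DESeq2 adjusted p 0.00216). Ccng2-203, of cyclin G2, had 135, 270.4 and 51.9 against 357, 661 and 85.9 (1.17; DESeq2 adjusted p 0.00280), and Slc2a3-204, of the glucose transporter GLUT3, 353, 1194 and 209 against 566, 1827 and 340 (0.66; DESeq2 adjusted p 0.00296). Lss-206, of lanosterol synthase, had a log2 fold change of 0.83 (DESeq2 adjusted p 0.0130).

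**Figure D3:**
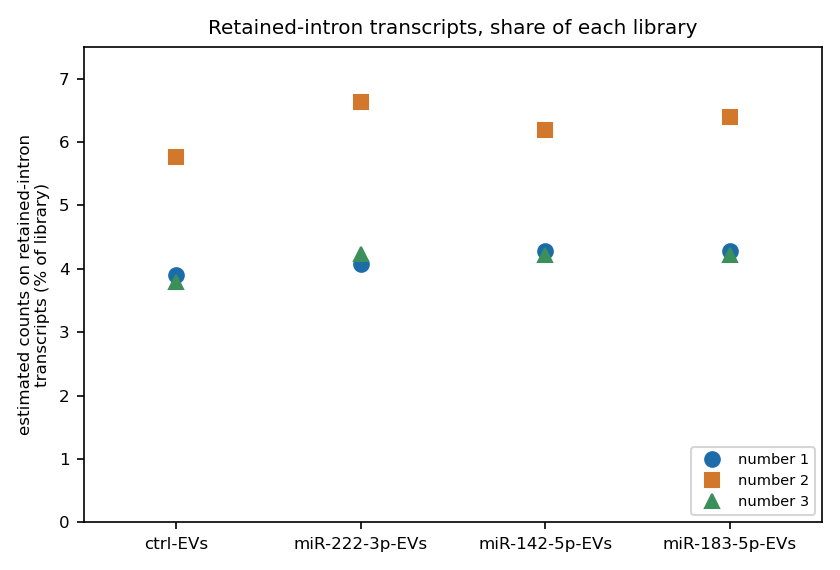
Percent of each library's estimated counts assigned to transcripts annotated as retained intron (vertical axis from 0), for the 4 groups, with number 1, 2 and 3 marked. The ctrl-EV libraries have 3.91%, 5.76% and 3.79%, and every mimic library lies above the ctrl-EV library of its number.

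To describe pathways, lists of genes with known functions were read against all genes, of which 12.6% were higher and 12.6% lower in all 3 numbers and the median log2 fold change was −0.00076. The list furthest to the higher side by its median was cholesterol and fatty acid synthesis. Of its 25 tested genes 8 were higher and 0 lower in all 3 numbers, 0 were called, and the median was 0.16. Elovl6, which lengthens fatty acids, had 1416, 1724 and 1044 counts with ctrl-EVs, against 1921, 2081 and 1294 given miR-222-3p-EVs. Each number was higher, with a log2 fold change of 0.34 ± 0.11 (SE; DESeq2 adjusted p 0.285). Lss, lanosterol synthase, had 1982, 3245 and 1406 counts against 2732, 4746 and 1497, a log2 fold change of 0.37 ± 0.11 (SE; DESeq2 adjusted p 0.185). By number the list's medians were 0.42, 0.23 and −0.065, so number 3 did not share the direction. Against the other mimics the list's median difference was −0.025.

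Interferon-stimulated genes had 9 of 30 higher and 1 lower in all 3 numbers, a median of 0.14, and 0 called. Ifit2, an antiviral RNA-binding protein, had 332, 195 and 305 counts against 386, 339 and 369.8, with groups apart and a log2 fold change of 0.42 ± 0.15 (SE; unadjusted DESeq2 p 0.00629). The members Ifit3b, Ifi205 and Ifit3 had larger ratios but few counts, Ifit3b having 5.01, 1.17 and 6.64 against 10.99, 8.47 and 11.7. By number the medians were 0.37, 0.088 and 0.061, and the median difference from the other mimics was 0.072.

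Chromatin modifiers had 12 of 39 genes higher and 0 lower in all 3 numbers, with a median of 0.12. Cbx5, the heterochromatin protein HP1-alpha, had 3972, 3600.1 and 3028 counts with ctrl-EVs, against 4816, 4567 and 4095 given miR-222-3p-EVs. Its groups did not overlap, and its log2 fold change was 0.35 ± 0.099 (SE; DESeq2 adjusted p 0.124). Tet2, which oxidises methylcytosine, had 0.33 (DESeq2 adjusted p 0.422), and the histone methyltransferase genes Setdb1 and Ehmt1 had 0.18 (0.519) and 0.18 (0.567). By number the medians were 0.021, 0.12 and 0.27, the reverse of the order in the lipid list.

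In the cell cycle and DNA replication list 10 of 37 genes were higher and 0 lower in all 3 numbers, with a median of 0.089. E2f2, a transcription factor of S-phase entry, had 588, 887 and 616 counts against 772, 1299.6 and 682, a log2 fold change of 0.36 (DESeq2 adjusted p 0.452). The mitotic regulator Foxm1 had 0.24 (0.577), the replicative helicase gene Mcm4 0.18 (0.707) and Rb1 0.20 (0.527), all by DESeq2 adjusted p. By number the medians of this list were 0.19, 0.14 and −0.024, and without number 3 the fitted median was 0.18. RNA splicing factors had 10 of 34 higher and 4 lower, with a median of 0.076 that was 0.0025 without number 2. The leading higher genes were Luc7l3 at 0.26 (DESeq2 adjusted p 0.370), Srrm2 at 0.16 (0.486), Hnrnpa2b1 at 0.18 (0.472) and Prpf8 at 0.13 (0.603). The 4 lower in all 3 numbers, named for that reason after their values were seen, were Srsf3 at −0.12, Ptbp1 at −0.080, Tra2b at −0.078 and Srsf6 at −0.015, with DESeq2 adjusted p of 0.816 to 0.984. For actin cytoskeleton, integrins and migration the count was 9 of 33 higher and 0 lower and the median 0.042. Mmp9, the gelatinase that macrophages secrete to cleave matrix, had 516, 343 and 297 counts against 676, 465 and 373. Each number was higher, with a log2 fold change of 0.39 ± 0.13 (SE; unadjusted DESeq2 p 0.00251).

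The lists did not all lean the same way. Of 13 mitochondrially encoded mRNAs, 0 were higher and 3 lower in all 3 numbers, with a median of −0.15. The gene mt-Nd4, a complex I subunit, had 50835.5, 37609 and 47083 counts against 45301, 30847 and 42249, a log2 fold change of −0.20 (DESeq2 adjusted p 0.376). mt-Cytb and mt-Atp8 had −0.27 (0.435) and −0.11 (0.851). Of 49 cytosolic ribosomal protein genes 0 were higher and 1, Rplp1, was lower in all 3, and the medians by number were −0.059, 0.13 and −0.35. Glycolysis and hypoxia genes had the widest split, with 0 of 28 higher and 0 lower in all 3 numbers and medians of 0.54, 0.037 and −0.29. The fitted median of 0.029 therefore stood for opposite differences in numbers 1 and 3. The remaining lists had medians between −0.043 and 0.081 in the plot of lists, except those given next.

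**Figure D4:**
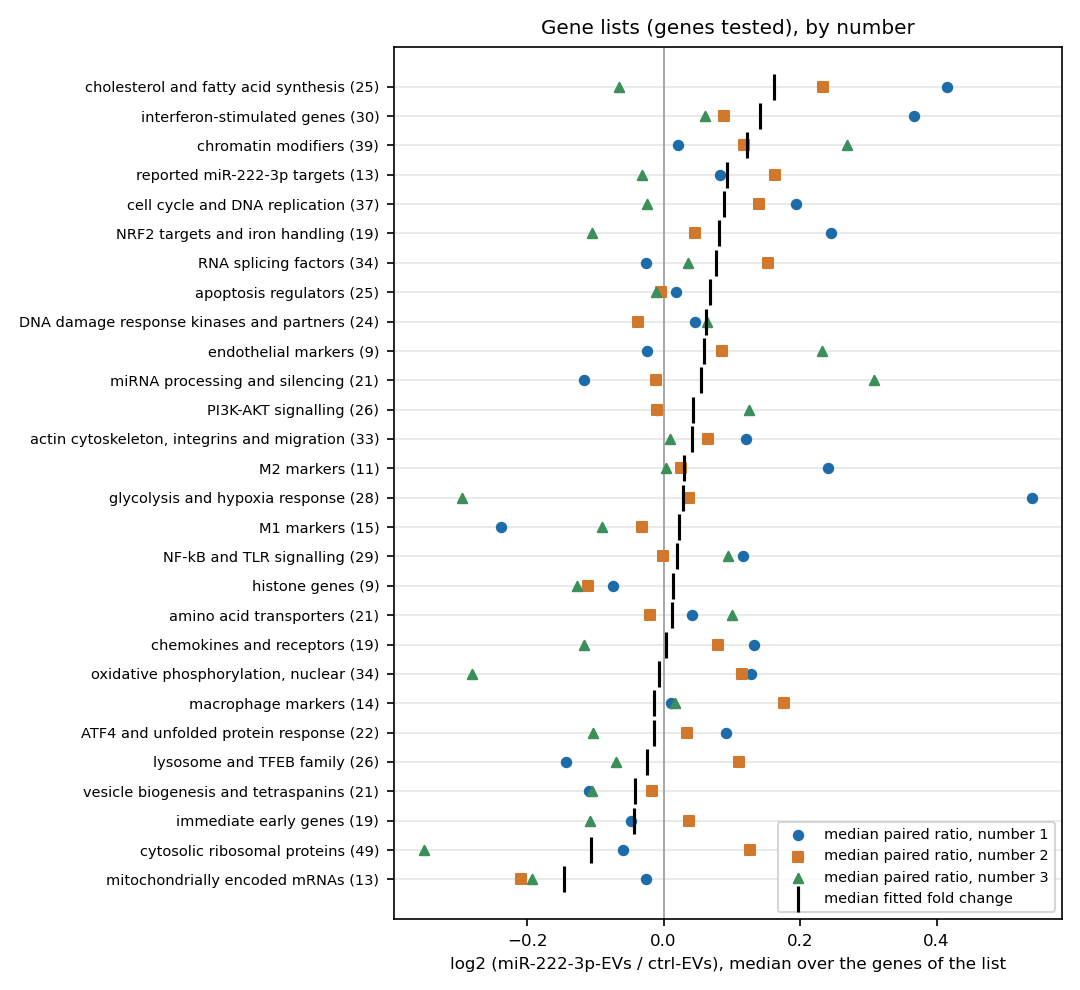
Median log2 ratio of miR-222-3p-EVs over ctrl-EVs for 28 gene lists (tested genes in brackets), with points for numbers 1, 2 and 3 and a bar for the median fitted fold change. The points of glycolysis run from −0.29 to 0.54, while those of the interferon list are all above 0 and those of the mitochondrial list all below.

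To determine whether polarisation genes differed, M1 and M2 markers were read in the same way. Of 11 tested M2 markers 4 were higher and 1 lower in all 3 numbers, with a median of 0.030, and of 15 M1 markers 1 was higher and 4 were lower, with a median of 0.022. None was called. The M1 median had no stable sign, since the medians by number were −0.24, −0.032 and −0.090 and the fitted median was −0.15 without the length correction and −0.058, −0.098 and −0.069 without numbers 1, 2 and 3. Irf4, a transcription factor of the M2 programme, had 105, 45.6 and 78.0 counts against 128, 69.0 and 118, a log2 fold change of 0.48 ± 0.23 (SE; unadjusted DESeq2 p 0.0369), and Vegfa, the angiogenic factor, had 0.23 (DESeq2 adjusted p 0.399). Cd36, a scavenger receptor, and Klf4 were low, with 1.76 to 20.1 and 20.03 to 53.6 counts. On the M1 side Cd86, a costimulatory ligand, had 1625, 712 and 1999.7 counts against 1316, 627 and 1872, a log2 fold change of −0.19 (DESeq2 adjusted p 0.642). The chemokine gene Ccl5 had −0.18 and Gpr18 −0.62, the last from at most 21.8 counts. The study's in vitro lists come from peripheral blood mononuclear cells and were matched to mouse genes by symbol (551 of 576 M1 and 337 of 353 M2 names). Of these, 64 of 490 tested M1 genes were higher and 56 lower in all 3 numbers (13.1% and 11.4%). Of the M2 genes, 41 of 285 were higher and 31 lower (14.4% and 10.9%). Both were near the shares over all genes. The study instead ranked all genes by fold change and reported M2 enrichment with miR-222-3p-EVs. That ranked test was not run here, and counts of shared direction are an unlike measure.

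The polarisation markers Arg1, Tgfb1, Nos2 and Il1b gave no call. Arg1, the arginase of M2-like cells, was under the count minimum, with 3.89, 6.18 and 0 counts against 4.46, 12.5 and 12.0 in a fit without the minimum. All numbers were higher, from so few reads that the log2 fold change of 1.56 had an unadjusted DESeq2 p of 0.117. Tgfb1 had 805, 585 and 877 counts against 818, 741 and 744, Nos2 146, 40.5 and 26.8 against 199.8, 39.6 and 24.7, and Il1b 44.7, 33.8 and 36.5 against 46.3, 30.2 and 43.0. Each of the 3 was higher in some numbers and lower in others.

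Finally, genes with a site for the miRNA were examined. Of 13 tested genes reported as miR-222-3p targets, 4 were higher and 0 lower in all 3 numbers, and the median log2 fold change was 0.093. Cdkn1b had 2274, 3438 and 2096 counts with ctrl-EVs, against 2409, 3850.3 and 2145 given miR-222-3p-EVs, a log2 fold change of 0.093 ± 0.12 (SE; DESeq2 adjusted p 0.915). It was not lower in any number. Foxo3, a transcription factor of the PI3K pathway, had 0.18 (DESeq2 adjusted p 0.780) and Ets1, which had 12.9 to 36.6 counts, 0.57. Bbc3 had −0.014 (DESeq2 adjusted p 0.986) and Ddit4, an inhibitor of mTORC1, 0.36 (0.564). Of the 13, 7 held the 7-base site, and 2 of these were higher and 0 lower in all 3 numbers.

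Of the 1217 genes with a site, 184 (15.1%) were higher and 125 (10.3%) lower in all 3 numbers, with a median log2 fold change of 0.032. Of the 11875 without, 12.1% were higher and 13.2% lower, with a median of −0.0054. By number the medians with a site were −0.027, 0.0054 and 0.12, beside 0.0082, 0.0087 and −0.034 without, so genes with a site lay lower than the rest in numbers 1 and 2 and higher in number 3. Genes with a site also had longer 3′ UTRs, with a median of 2563 bases against 817. In 4 equal groups by UTR length, from the shortest, the medians with a site were −0.088, −0.018, −0.0041 and 0.058, from 33, 111, 289 and 784 genes, beside −0.032, −0.020, −0.0022 and 0.048 without. The order of the pair thus differed between the groups. Without number 3 the medians over all UTR lengths were −0.011 with a site and 0.0010 without. Against the other mimics the median difference of the genes with a site was −0.016, beside 0.0042 for those without.

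Gene length moved with the ratios of number 3 alone. Length and GC content here are means over a gene's annotated transcripts, weighted by their counts, and not of its genomic span. From the shortest to the longest of 4 equal groups of 10080 genes the median log2 ratio was −0.22, −0.092, 0.014 and 0.18 in number 3, against −0.017 to 0.0095 in number 1 and −0.0035 to 0.024 in number 2. Over 4 groups by GC content the medians went from 0.051 to −0.13 in number 3 and from −0.028 to 0.063 in number 1. Chromatin modifiers and genes with a site leaned higher, and ribosomal protein genes lower, in number 3, and the part of length in these was tested only by a correction for length and GC content. With it the medians were 0.065 for chromatin modifiers and −0.061 for ribosomal protein genes. Genes with a site had −0.020 and those without −0.013, the reverse of their order before the correction. Without number 3 the ribosomal median was 0.017.

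**Figure D5:**
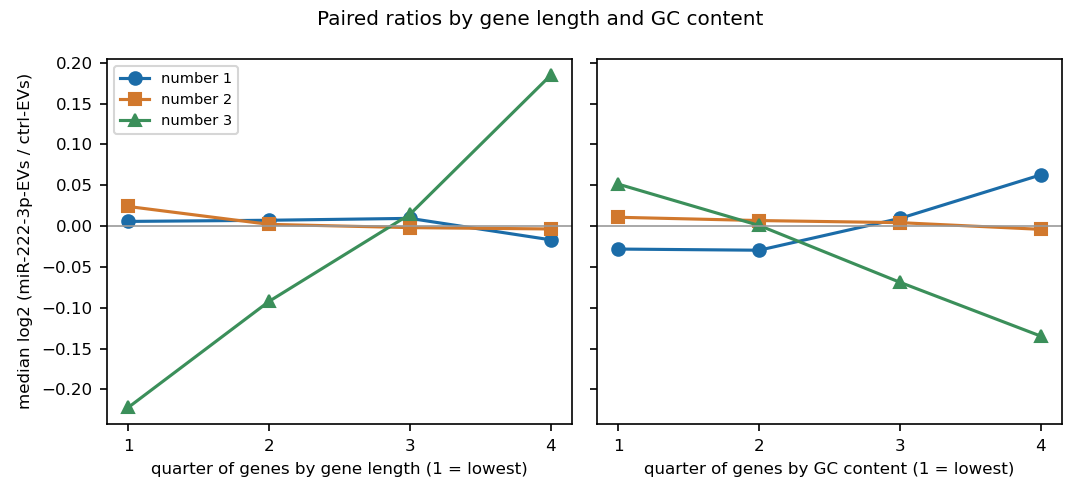
Median log2 ratio of miR-222-3p-EVs over ctrl-EVs (vertical axis) in 4 equal groups of genes by length (left) and by GC content (right), for numbers 1, 2 and 3. Length and GC content are count-weighted means over each gene's transcripts. In number 3 the line rises from −0.22 to 0.18 with length, while those of numbers 1 and 2 stay near 0.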

How the data were processed

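The 12 RNA libraries (4 groups of 3) were sequenced as stranded paired-end libraries. The authors deposited Salmon output per transcript, with estimated counts, TPM (a length- and depth-scaled level) and effective lengths. The submitters' processing notes name GRCh38, but the identifiers are mouse. Of 118783 transcripts, 116622 matched GENCODE vM21 (GRCm38), giving 35865 genes. The unmatched held 0.605% to 0.707% of counts.

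Estimated counts were summed to genes, rounded and fitted in R 4.3.3 with DESeq2 1.42.0 over all 12 libraries, with group and replicate number as terms and TPM-weighted effective length as an offset. Genes or transcripts needed at least 10 counts in at least 3 libraries, and Benjamini-Hochberg adjusted p was called under 0.05. DESeq2 gave 7549 genes no adjusted p. Paired log2 ratios used normalized counts plus 1. TPM was used for marker sums, weights and the choice of transcript for sites. edgeR 4.0.16 was an alternative. The comparison was set as paired by number. Deviations from group means of same-numbered ctrl-EV and miR-222-3p-EV libraries correlated at 0.423 to 0.717 (mean 0.546, 3 pairs). The highest value was that of number 2. Numbers 1 and 3 were less distinct from each other. Library 1 with ctrl-EVs and library 3 with miR-222-3p-EVs had 0.223, and library 3 with ctrl-EVs and library 1 with miR-222-3p-EVs had 0.209. The labels do not say that libraries came from separate cultures, so p-values measure the spread between these libraries, which may be technical. The depth of 16294611 to 22974853 counts limits low genes most.

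Named genes were all called genes, the 10 largest smallest paired ratios in each direction among genes with a mean of at least 100 counts, and Arg1, Tgfb1, Nos2 and Il1b. Some items that these rules name are not reported here. The 10 transcripts with the lowest p and the leading members of each list were also named. The members, lists and rules were chosen with earlier results of these data known. The gene fit was also run on simulated counts with the same length for every gene and library, so that run did not test the length correction.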

Additional observations from a re-analysis of the deposited data

Results flagged for a closer look

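Against the other mimics 3 genes differed, by a test of the difference between the groups' effects. Rdh16f1 (DESeq2 adjusted p 0.0076) had 0 counts in the 3 miR-222-3p-EV libraries, 0, 66.7 and 0 given miR-142-5p, and 0, 0 and 4.96 given miR-183-5p. Gm20671 (DESeq2 adjusted p 0.036) had 0, 0 and 13.5 counts with miR-222-3p-EVs, 0 in each miR-142-5p-EV library and 15.3, 0 and 0 with miR-183-5p-EVs. Gm49450 (DESeq2 adjusted p 0.036) had 54.8, 15.7 and 15.4 counts with miR-222-3p-EVs, 0, 1.27 and 0 given miR-142-5p, and 37.5, 12.7 and 5.01 given miR-183-5p. edgeR called 0 genes in this contrast, with 247 at an unadjusted p under 0.05 against 212 in DESeq2. Groups of 3 are too small for a test of single outlying libraries.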

How the results depend on the processing

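The 9 called genes became 0 without the replicate block, 0 with edgeR, 5 with a correction for length and GC content, 20 with no count filter and 1 with only the 6 libraries compared, and 1 to 93 when a number or a library was left out. Called transcripts went from 181 to 40 without the replicate block, 0 with edgeR, 37 with at least 10 counts required in all 6 libraries and 1057 with no count filter, and 162 to 333 with a number left out. The calls without numbers 1, 2 and 3 shared only 23, 44 and 39 transcripts with the 181. The 3 genes that differed from the other mimics became 0 without the block, 0 with edgeR and 0 with the filter on all 6 libraries, and 0 to 2 with a number left out. Genes moving the same way in every number went from 3506 to 6663 to 7301 with a number left out, where fewer numbers have to share a direction. Of 135 values of the 9 called genes under the alternatives, 39 stayed past the threshold, 96 did not and 0 turned. Of 224 medians of gene lists, 15 moved by more than the spread between numbers, 5 of them for the 9 histone genes. Elsewhere the sign turned without the length offset for Tlr3 (−0.047), Gm15446 (0.036) and Il1b (−0.19). When a number or a library was left out, it turned for Tgfb1 (−0.11, −0.096 and −0.029, with values up to 0.17), Nos2 (−0.079 and −0.029, up to 0.27) and Il1b (−0.069, −0.24, −0.011 and −0.097, up to 0.29). The cause of these changes was not tested.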
